A study of Mus musculus with 12 samples.

Results

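The values below are the reads on 10 genes, *Tnnt1*, *Zic1*, *Synpo2*, *Tcf7l2*, *Prkcd*, *Slc17a6*, *Vipr2*, *Rgs16*, *Lef1* and *Rorb*, in RNA-seq libraries of mouse hippocampus. They are 10 of the 37991 genes counted, and all 10 passed the filter on low counts. They were picked because they are enriched in the thalamus or the habenula and because their counts varied strongly between the libraries. The size of that spread, and the way the genes move together, were therefore used in the choice and are given as a description with no test. Poly(A) RNA was sequenced from 12 hippocampal samples, 6 labelled *Gadd45a*-WT and 6 labelled *Gadd45a*-KO. All animals were C57BL/6N siblings bred from heterozygous parents. They were 6 to 7 months old by the labels, whereas the study's methods give adult male mice of a younger range, up to 6 months. Every animal had been through the passive avoidance (PA) test. In it, a mouse learns to stay out of a dark compartment where it received a foot shock. The hippocampus was taken 1 h later. *Gadd45a*-KO mice carry a constitutive deletion in every tissue, made by putting a neomycin cassette in place of the first exons. According to the study's methods, a slab of brain was cut in a matrix and the hippocampus was freed from it with a scalpel on ice. No source gives how much neighbouring tissue each sample held.

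The thalamus is the relay station for most sensory input to the cortex, and its relay neurons are glutamatergic. They load their vesicles with the transporter VGLUT2, whereas the pyramidal and granule cells of the hippocampus use mainly VGLUT1. The habenula is a small neighbour of the thalamus that sends its axons to the midbrain and the interpeduncular nucleus. Relay neurons keep expressing the Wnt effectors TCF7L2 and LEF1 in the adult brain, and TCF7L2 is also needed for the identity of both regions during development.

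Between 44594261 and 55540601 reads per library fell on genes, so that 1 read was 0.0180 to 0.0223 CPM, the unit in which reads are scaled to a common library size. Within a label, all 30 pairs of libraries differed beyond counting error (chi-square over degrees of freedom of 9.03 to 40.8). Reads on *Gadd45a* went against the labels, at 2.19 to 3.43 CPM under the label *Gadd45a*-WT and 20.5 to 23.1 CPM under *Gadd45a*-KO, so libraries are named by label and replicate number. According to the study's methods, part of the gene remains in the deleted allele. Counts per gene do not show where in the gene the reads fell, and the reason for the difference was not tested. At a false discovery rate (FDR) of 1%, 2.62% of the tested genes were lower under the label *Gadd45a*-KO and 0.0244% were higher. Markers of hippocampal principal cells were present in every library, with 79.1 to 196 CPM for *Prox1*, a transcription factor of granule cells, and 236 to 332 CPM for *Neurod6*, a transcription factor of pyramidal cells. A pair of libraries stood apart for the 10 genes, *Gadd45a*-KO replicates 2 and 3, written KO 2 and KO 3 below. Reads on *Gadd45a* were 21.1 CPM in each of them, within the range of their label. Values are therefore given with and without both. In bulk tissue, fewer or more cells of a type cannot be told apart from less or more RNA per cell.

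Promoter windows of the members were read from RefSeq on GRCm38.p6, from 250 bases before to 50 bases after each start, and all 10 members had at least 1 window, 17 in all. The gene positions given further on are those of NCBIM37, the build of the counts, and were not compared with these windows. Sequences are shown for the member that varied most, *Tnnt1*, with a TATA motif in capitals, and for *Lef1*, the one member with a match for a ZIC motif, also in capitals, since ZIC1 is itself among the members. The *Tnnt1* window lies at chr7:4515926-4516225 on the minus strand and the *Lef1* window at chr3:131110047-131110346 on the plus strand.
Tnnt1: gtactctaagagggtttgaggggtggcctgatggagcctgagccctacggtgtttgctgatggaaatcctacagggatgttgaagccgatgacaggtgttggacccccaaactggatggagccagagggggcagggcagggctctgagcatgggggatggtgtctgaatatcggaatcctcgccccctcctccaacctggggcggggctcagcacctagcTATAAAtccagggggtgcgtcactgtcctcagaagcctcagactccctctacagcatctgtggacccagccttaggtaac
Lef1: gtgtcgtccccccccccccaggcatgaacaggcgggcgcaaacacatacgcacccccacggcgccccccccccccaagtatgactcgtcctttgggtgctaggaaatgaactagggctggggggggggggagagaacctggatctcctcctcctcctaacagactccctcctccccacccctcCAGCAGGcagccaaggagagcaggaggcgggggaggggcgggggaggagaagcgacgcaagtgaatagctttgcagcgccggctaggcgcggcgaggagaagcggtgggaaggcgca
Motifs were searched as exact letters on both strands. The TATA letters TATAAA, which read TTTATA on the other strand, were found in 5 of the 17 windows, belonging to *Lef1*, *Prkcd*, *Synpo2*, *Tcf7l2* and *Tnnt1*, and in 13.6% of all 32851 promoter windows of this length. For ZIC factors the letters CAGCAGG were searched, with CCTGCTG for the other strand. This motif was in 2 member windows, which overlap and both belong to *Lef1*, and in 10.5% of all windows. For TCF and LEF factors, ATCAAAG or its other strand CTTTGAT was in 0 member windows and 3.73% of all. For ROR receptors, AGGTCA or its other strand TGACCT was in 0 member windows and 16.3% of all. These motifs share no letters in the sequences shown. A match is a description of the letters, and the absence of one says only that these letters are not in these windows.

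*Zic1*, *Tcf7l2*, *Lef1* and *Rorb* encode transcription factors. *Zic1* (ENSMUSG00000032368, chromosome 9 from 91252896 to 91260648) encodes a zinc finger protein of the thalamus, cerebellum and meninges. It had 5.11, 7.14 and 13.8 CPM as the lowest, median and highest values of the libraries labelled *Gadd45a*-WT. KO 2 had 41.1 CPM, KO 3 had 45.9 CPM, and the other 4 libraries labelled *Gadd45a*-KO had 6.91 to 9.14 CPM. KO 2 and KO 3 were thus well above the rest, whereas the other 4 lay inside the range of *Gadd45a*-WT. The next highest value was that of *Gadd45a*-WT replicate 2. *Tcf7l2* (ENSMUSG00000024985, chromosome 19 from 55816300 to 56008144), which encodes a partner of beta-catenin in Wnt signalling, had 3.47, 3.68 and 5.30 CPM as the lowest, median and highest values of *Gadd45a*-WT. KO 2 had 24.1 CPM and KO 3 had 31.5 CPM, against 3.67 to 4.07 CPM in the other 4 libraries of their label. The other 4 spanned a narrower range than *Gadd45a*-WT and lay inside it.

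*Lef1* (ENSMUSG00000027985, chromosome 3 from 130813389 to 130927274) encodes the other TCF/LEF factor among the members. Its lowest, median and highest values in *Gadd45a*-WT were 3.49, 4.25 and 4.42 CPM. KO 2 had 10.7 CPM and KO 3 had 12.3 CPM, and the other 4 libraries labelled *Gadd45a*-KO had 4.12 to 5.73 CPM. The rise in KO 2 and KO 3 was smaller than for *Tcf7l2*, and *Gadd45a*-KO replicates 1 and 4 were also above every *Gadd45a*-WT library. *Rorb* (ENSMUSG00000036192, chromosome 19 from 19005095 to 19185686) encodes an orphan nuclear receptor of sensory thalamus and cortical layer 4. It had 18.7, 21.8 and 23.6 CPM as the lowest, median and highest values of *Gadd45a*-WT. KO 2 had 28.3 CPM, KO 3 had 30.8 CPM, and the other 4 libraries of that label had 22.7 to 28.5 CPM. *Rorb* was the exception among the members, because KO 2 lay inside the range of the other 4 libraries and because 5 of 6 libraries labelled *Gadd45a*-KO were above all those labelled *Gadd45a*-WT.

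*Prkcd*, *Slc17a6*, *Vipr2* and *Rgs16* encode signalling and transport proteins. *Prkcd* (ENSMUSG00000021948, chromosome 14 from 31408542 to 31439396), the delta isoform of protein kinase C and a common marker of thalamic relay neurons, had 33.3, 55.5 and 69.4 CPM as the lowest, median and highest values of *Gadd45a*-WT. KO 2 had 136 CPM and KO 3 had 216 CPM, against 38.8 to 71.0 CPM in the other 4. Reads on it were common in every library, from 1844 to 11180. *Slc17a6* (ENSMUSG00000030500, chromosome 7 from 58877200 to 58926495) encodes VGLUT2 and had 3.21, 7.57 and 16.0 CPM as the lowest, median and highest values of *Gadd45a*-WT. KO 2 had 33.1 CPM and KO 3 had 49.1 CPM, whereas the other 4 had 5.57 to 13.5 CPM. This gene also varied widely outside KO 2 and KO 3, and *Gadd45a*-WT replicate 1 had the next highest value.

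*Vipr2* (ENSMUSG00000011171, chromosome 12 from 117316196 to 117384734) encodes the VPAC2 receptor for the neuropeptides VIP and PACAP. Its lowest, median and highest values in *Gadd45a*-WT were 0.441, 0.859 and 1.18 CPM, from 24 to 59 reads. KO 2 had 7.60 CPM from 346 reads and KO 3 had 16.2 CPM from 838 reads, and the other 4 had 0.706 to 1.06 CPM. KO 2 and KO 3 were thus far above the other libraries, which overlapped between the labels. *Rgs16* (ENSMUSG00000026475, chromosome 1 from 155587479 to 155592598) encodes a protein that speeds the turning off of G proteins. It had 4.26, 5.24 and 6.17 CPM as the lowest, median and highest values of *Gadd45a*-WT. KO 2 had 19.6 CPM and KO 3 had 29.6 CPM, and the other 4 had 4.69 to 5.29 CPM, inside the range of *Gadd45a*-WT.

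The remaining pair encodes proteins of the actin and muscle type cytoskeleton. *Tnnt1* (ENSMUSG00000064179, chromosome 7 from 4456172 to 4467984), whose promoter window is printed above, encodes slow skeletal troponin T, which is also transcribed in thalamic neurons. It had 1.12, 1.39 and 1.83 CPM as the lowest, median and highest values of *Gadd45a*-WT, from 59 to 83 reads. KO 2 had 15.6 CPM from 708 reads, KO 3 had 29.8 CPM from 1545 reads, and the other 4 had 1.33 to 1.67 CPM. *Synpo2* (ENSMUSG00000050315, chromosome 3 from 122779437 to 122939067) encodes an actin binding protein related to synaptopodin. Its lowest, median and highest values in *Gadd45a*-WT were 4.70, 5.05 and 5.91 CPM. KO 2 had 26.4 CPM and KO 3 had 44.1 CPM, against 4.40 to 6.04 CPM in the other 4. For both genes the other 4 libraries overlapped with *Gadd45a*-WT.

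**Figure D1:**
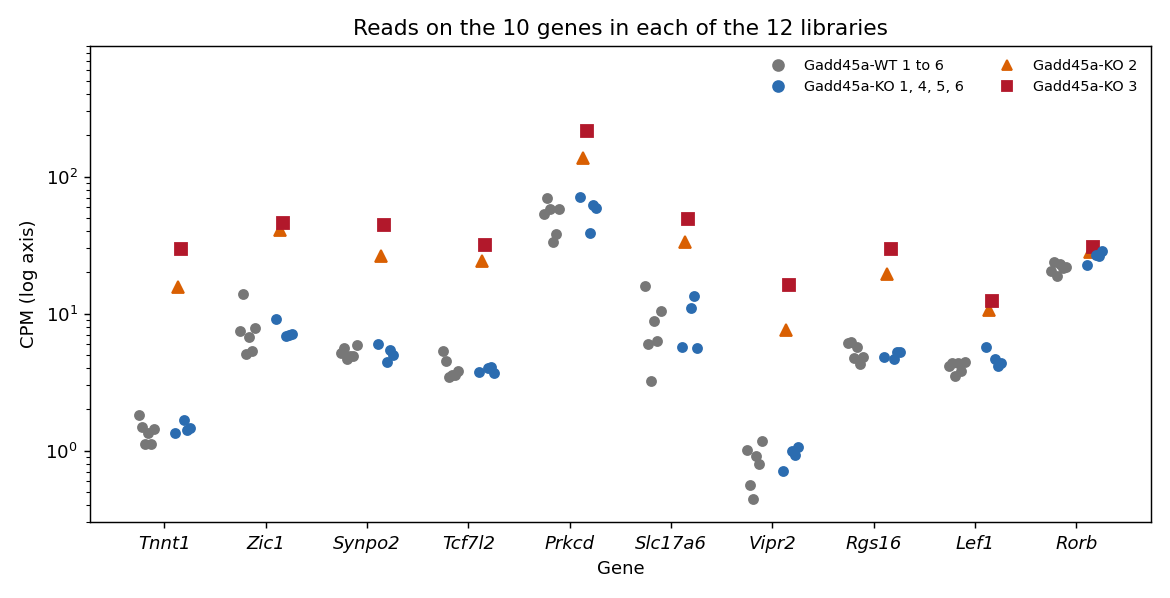
CPM of the 10 genes on a log axis, with 1 point for each of the 12 libraries. KO 3 (square) is the highest library for every gene and KO 2 (triangle) the next for all but *Rorb*, where the 12 libraries lie between 18.7 and 30.8 CPM.

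KO 3 was the highest library for 10 of 10 members, and for 2437 of the 16399 tested genes. KO 2 and KO 3 were the 2 highest of the 12 libraries for 9 of them, as they were for 5.94% of the 16399 tested genes. For 7 members both were also at least 2 times the highest of the other 10 libraries. This held for 26 tested genes in all, or 0.159%. The 7 members were *Tnnt1*, *Vipr2*, *Tcf7l2*, *Synpo2*, *Rgs16*, *Zic1* and *Slc17a6*. The lower of KO 2 and KO 3 was 2.07 times the highest other library for *Slc17a6*, the member just inside this limit, and 1.91 times for *Prkcd*, the one just outside. It was 1.87 times for *Lef1* and 0.99 times for *Rorb*. Since the genes were picked for such values, nothing is read from these counts.

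The size of the difference in KO 2 and KO 3 varied between members. Relative to the median of the other 10 libraries, *Tnnt1* was 10.9 times as high in KO 2 and 20.9 times in KO 3. *Vipr2* was 8.21 and 17.5 times as high. At the other end, *Prkcd* was 2.34 and 3.71 times as high, *Lef1* 2.45 and 2.82 times, and *Rorb* 1.24 and 1.35 times. The large ratios belonged to genes with few reads elsewhere. Per length, in reads per kilobase of exon at equal depth (RPKM), the mean level in *Gadd45a*-WT was 10.4 for *Prkcd*, 2.26 for *Rgs16*, 1.96 for *Slc17a6*, 1.95 for *Rorb* and 1.36 for *Zic1*. It was under 1 for the other members, down to 0.237 for *Vipr2*. In the mean of KO 2 and KO 3 the order changed, with 35.3 RPKM for *Prkcd*, 10.5 for *Rgs16*, 10.4 for *Tnnt1* and 9.52 for *Slc17a6*. *Rorb*, at 2.67 RPKM, was then above *Lef1* alone, which had 1.33 RPKM.

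The members did not keep a single proportion between KO 2 and KO 3. The CPM above the median of the other 10 libraries was compared between both. For *Vipr2* this excess in KO 2 was 0.438 of that in KO 3, and for *Prkcd* and *Tnnt1* it was 0.493 and 0.498. It was 0.546 for *Synpo2*, 0.593 for *Rgs16* and 0.615 for *Slc17a6*. The transcription factors were at the upper end, with 0.682 for *Rorb*, 0.733 for *Tcf7l2*, 0.801 for *Lef1* and 0.875 for *Zic1*. For *Rorb*, however, KO 2 was inside the range of the other 10 libraries, so its ratio says little. With 1 library on each side, these ratios have no replicate error. *Zic1* has 60 exonic bases in common with *Zic4* on the opposite strand, and the counting used the strand.

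**Figure D2:**
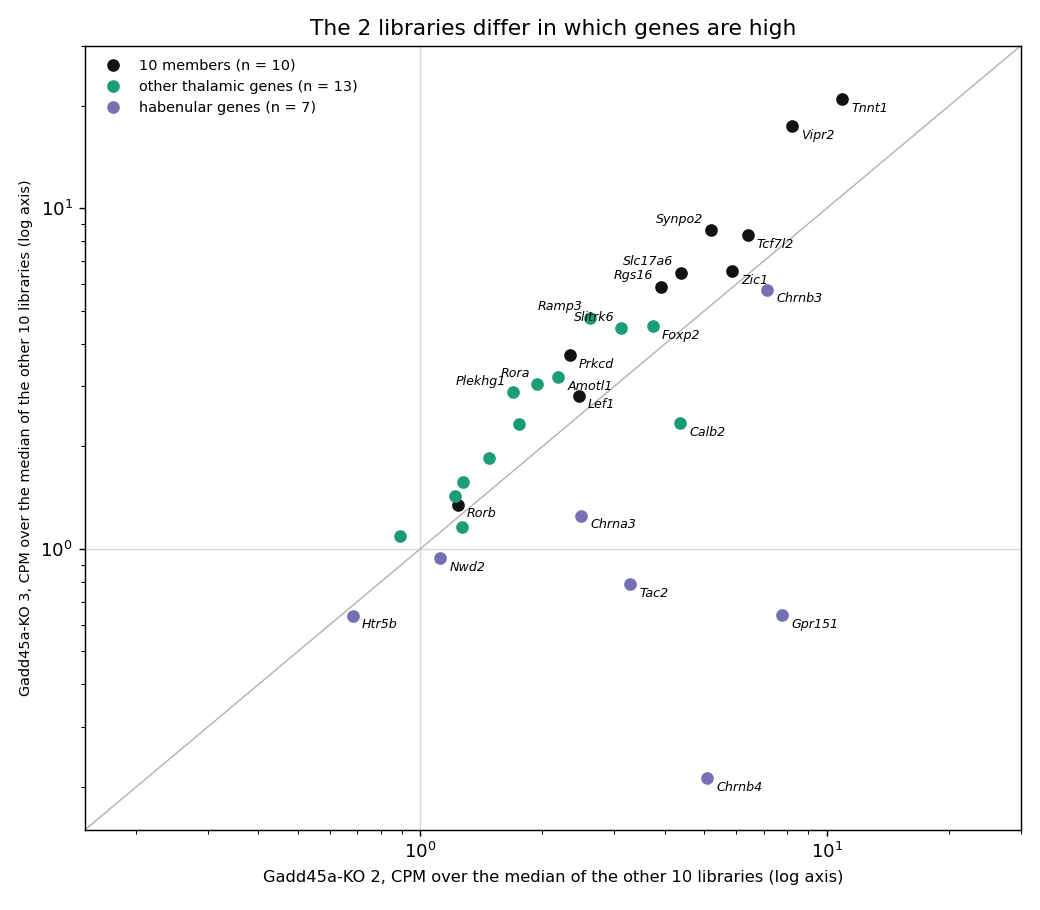
Level in KO 3 (vertical) against level in KO 2 (horizontal), each as CPM over the median of the other 10 libraries on log axes, for the 10 members, 13 other thalamic and 7 habenular genes that were tested. All 10 members lie above the diagonal, with *Tnnt1* at 10.9 and 20.9, whereas *Gpr151* and *Chrnb4* lie above 1 for KO 2 and below 1 for KO 3.

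Spread within a label was next described as the standard deviation of log2 CPM. Over all tested genes its median was 0.11 in *Gadd45a*-WT, 0.11 in *Gadd45a*-KO and 0.10 among the 4 libraries labelled *Gadd45a*-KO other than KO 2 and KO 3. Over the members the medians were 0.25, 1.30 and 0.19. *Tnnt1* had the second largest spread of all tested genes in *Gadd45a*-KO, and *Vipr2* and *Tcf7l2* ranked 5 and 9. *Rorb* ranked 6340. In *Gadd45a*-WT, which holds neither KO 2 nor KO 3, *Slc17a6* had the largest spread of the members, at 0.79 and rank 90, followed by *Zic1* at 0.52 and *Vipr2* at 0.51. *Synpo2*, *Lef1* and *Rorb*, at 0.12 to 0.14, were near the median of all genes there. Among the 4 remaining *Gadd45a*-KO libraries, *Slc17a6* at 0.65 was again the widest, followed by *Prkcd* at 0.38.

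Correlations between members were computed over the 6 libraries of each label, on log2 CPM, for 45 pairs of genes. In *Gadd45a*-KO all 45 pairs were positive, with a median Pearson's r of 0.94, and 33 of them were over 0.9. The median of Spearman's rank correlation was lower, at 0.66. *Rorb* was the loosest member, with r from 0.49 to 0.74 with the other 9. Without KO 2 and KO 3 the median r over the same pairs was -0.31, from 4 libraries, and 21 of 45 pairs were positive. The high values in *Gadd45a*-KO thus rested on KO 2 and KO 3. In *Gadd45a*-WT 42 of 45 pairs were positive, with a median r of 0.49 and a median rank correlation of 0.54. *Tnnt1* and *Tcf7l2* had the highest value, 0.91, followed by *Slc17a6* and *Vipr2* at 0.89 and *Lef1* and *Rorb* at 0.82. *Prkcd* and *Vipr2* had the lowest, -0.35. All points share their library, and thus its depth and tissue.

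**Figure D3:**
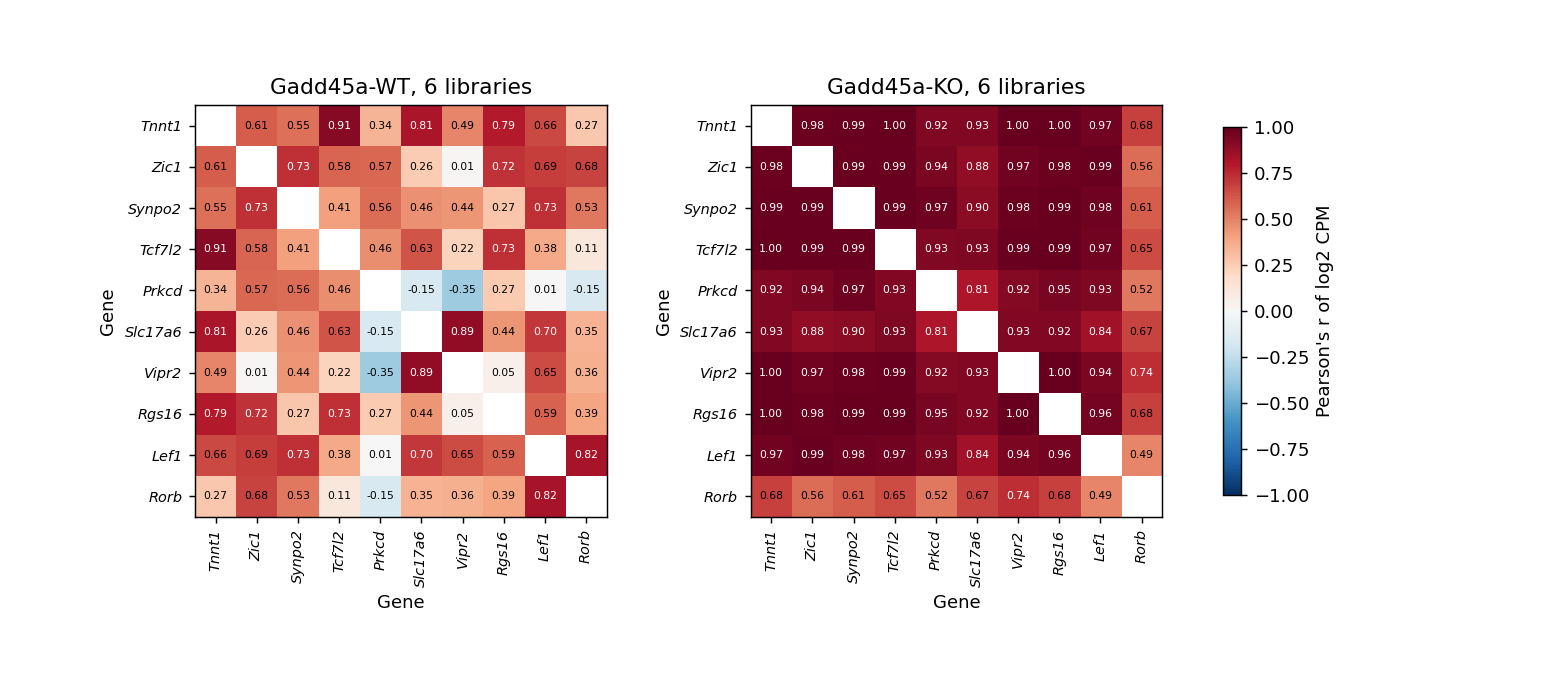
Pearson's r of log2 CPM between each pair of members over 6 libraries labelled *Gadd45a*-WT (left) and 6 labelled *Gadd45a*-KO (right), with negative values in blue and positive ones in red. In the right panel every pair without *Rorb* is at 0.81 or more, whereas the left panel runs from -0.35 to 0.91.

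The study asked which genes differ between *Gadd45a*-WT and *Gadd45a*-KO after PA training, and the members enter that comparison like all genes. At 1% FDR, 0 of 10 members passed the quasi-likelihood test of edgeR after Benjamini-Hochberg adjustment over 16399 genes, against 2.65% of all tested genes. At an unadjusted p under 0.05, 10 of 10 members passed, all of them higher, against 13.7% of all genes in either direction and 4.34% higher, and with DESeq2 1 of 10 passed 1% FDR (*Rorb*), against 3.88% of the genes that DESeq2 tested. The genes were picked on the spread of these same values, so these counts are no independent evidence of a difference. The log2 fold change was highest for *Tnnt1*, at 2.63 (standard error 0.79, edgeR adjusted p = 0.0913), and for *Vipr2*, at 2.48 (standard error 0.77, edgeR adjusted p = 0.104). For *Tcf7l2*, *Synpo2*, *Zic1*, *Slc17a6*, *Rgs16*, *Prkcd* and *Lef1* it lay between 0.77 and 1.56, with edgeR adjusted p from 0.143 to 0.310. *Rorb* had the smallest log2 fold change of the members, 0.33, with the smallest standard error, 0.070, and the lowest edgeR adjusted p, 0.0110. The median over the members was 1.28 and that over all tested genes 0.00.

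Without KO 2 and KO 3, which was chosen after the values had been seen, the median log2 fold change of the members was 0.080. *Tnnt1* was then at 0.086, *Vipr2* at 0.18, *Prkcd* at 0.16, *Slc17a6* at 0.074 and *Synpo2* at 0.0058, whereas *Zic1*, *Tcf7l2* and *Rgs16* were slightly below 0, at -0.030, -0.055 and -0.076. None of the members passed 1% FDR in this edgeR fit, against 1.22% of 16559 genes, and 1 of 10 had an unadjusted p under 0.05, against 9.23% of all genes. That member was *Rorb*, at 0.27 (standard error 0.072, edgeR adjusted p = 0.0685). *Lef1* followed at 0.21 (standard error 0.10, edgeR adjusted p = 0.617). The differences of the remaining 8 members were smaller than their standard errors (edgeR adjusted p = 0.9998 for each). Over all genes, 202 passed without KO 2 and KO 3, of which 200 were among the 434 that passed with all 12 libraries. That count also fell to between 242 and 279 when *Gadd45a*-WT replicate 3, 5 or 6 or *Gadd45a*-KO replicate 1, 2 or 6 was left out alone.

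**Figure D4:**
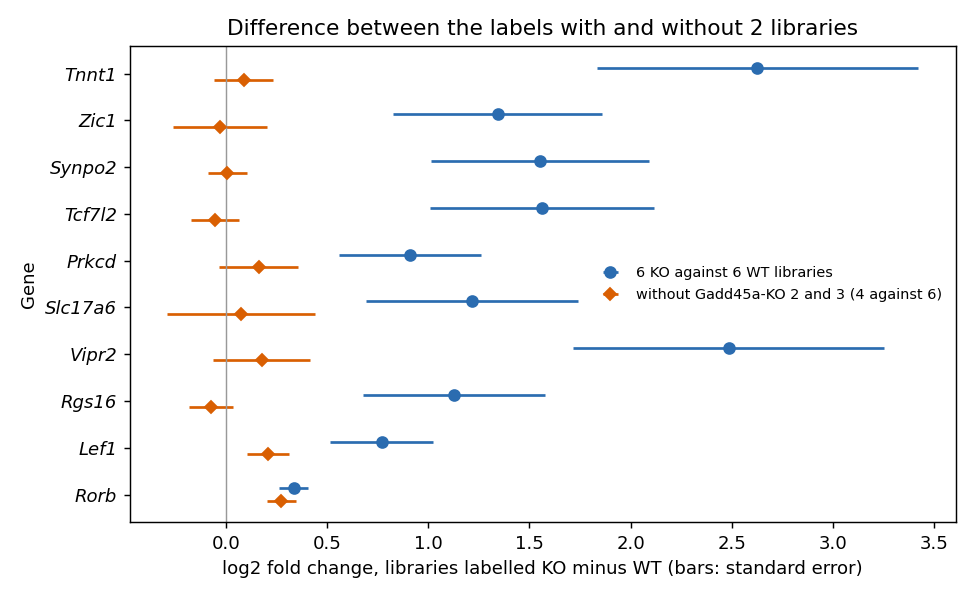
Log2 fold change of each member between the libraries labelled *Gadd45a*-KO and *Gadd45a*-WT from edgeR, with all 12 libraries (circles) and without KO 2 and KO 3 (diamonds), with bars of 1 standard error. Leaving out both libraries moves *Tnnt1* from 2.63 to 0.086, whereas *Rorb* moves from 0.33 to 0.27.

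A second list of 15 thalamic and 9 habenular genes, which does not overlap with the members, was used to see how far the pattern extends. This list was also chosen with earlier results of these data known, so its counts are no independent evidence. From it, 13 thalamic and 7 habenular genes passed the filter. None passed 1% FDR between the labels, in the edgeR test (2.65% of all tested genes) or in DESeq2 (3.88%), and 4 of 20 had an unadjusted p under 0.05, against 13.7% of all tested genes. Their median log2 fold change was 0.43, against 0.00 over all tested genes, and -0.079 without KO 2 and KO 3. The mean log2 level of the second list was also compared with that of the members, library by library. Within *Gadd45a*-KO, r was 0.93 (rank correlation 0.71) over 6 libraries. It was -0.35 (rank correlation 0.2) over the 4 without KO 2 and KO 3, so the high value rested on both. Within *Gadd45a*-WT, r was -0.37 (rank correlation -0.6) over 6 libraries. KO 2 and KO 3 were the 2 highest of 12 libraries for 12 of the 13 tested thalamic genes, against 5.94% of all genes. The exception was *Cacna1g*, a T-type calcium channel of relay neurons, with 60.2 CPM in KO 2, 73.6 CPM in KO 3 and up to 104 CPM elsewhere. For *Lhx9* and *Ptpn3* the margin was small, with the lower of KO 2 and KO 3 at 1.01 and 1.06 times the highest other library. Summed over the 15 thalamic genes, KO 2 had 857 CPM and KO 3 had 1092 CPM, against 576 to 654 CPM in the other 10 libraries. Over the 10 members, the sums were 342 and 505 CPM against 89.8 to 136 CPM.

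Several of these genes are known for thalamic relay neurons. *Ramp3*, which encodes a partner of calcitonin type receptors, had 11.1 CPM in KO 2 and 20.4 CPM in KO 3, against 2.86 to 4.95 CPM in the other 10 libraries. *Rora*, the nuclear receptor closest to *Rorb*, had 61.9 and 97.3 CPM against 29.4 to 37.3 CPM, so that it was further from the other libraries than *Rorb* was. *Plekhg1* had 59.9 and 102 CPM against 28.0 to 38.3 CPM. *Foxp2*, a forkhead transcription factor, had 3.12 and 3.76 CPM against 0.513 to 1.22 CPM. For the abundant genes *Adarb1*, an RNA editing enzyme, and *Ptpn3*, a tyrosine phosphatase, the gap was small. *Adarb1* had 312 and 384 CPM against 226 to 270 CPM, and *Ptpn3* had 155 and 182 CPM against 118 to 146 CPM. *Calb2*, which encodes calretinin, a calcium buffer of midline thalamic and other neurons, was higher in KO 2 than in KO 3, at 25.4 and 13.6 CPM against 4.28 to 11.9 CPM. *Gbx2*, a homeobox gene of the developing thalamus that did not pass the filter, had 0.769 and 0.829 CPM against 0 to 0.0981 CPM. *Shox2* had 0 reads in all 12 libraries.

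Several habenular genes separated KO 2 from KO 3. KO 2 was the highest library for 5 of the 7 tested genes and KO 3 for 0 of 7. Over all 16399 tested genes, KO 2 was the highest library for 1417 and KO 3 for 2437. *Pou4f1*, the transcription factor BRN3A that defines medial habenular neurons, had 2.42 CPM in KO 2 from 110 reads, whereas KO 3 had 0 reads and the other 10 libraries had 0 to 0.0890 CPM. *Gpr151*, an orphan receptor of habenular axons, had 5.87 CPM in KO 2, 0.482 CPM in KO 3 and 0.368 to 1.16 CPM elsewhere. *Tac2*, which encodes neurokinin B, had 4.26 CPM in KO 2, 1.02 CPM in KO 3 and 0.890 to 2.08 CPM elsewhere. In KO 3 these 3 genes were thus inside the range of the other 10 libraries.

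The nicotinic receptor subunits showed both patterns. *Chrnb4* had 1.38 CPM in KO 2 and 0.0578 CPM in KO 3, which was the lowest of all libraries. *Chrna3* had 1.34 CPM in KO 2 and 0.675 CPM in KO 3, against 0.380 to 0.608 CPM in the other 10. *Chrnb3* was high in both, at 2.24 and 1.81 CPM against 0.152 to 0.559 CPM. *Htr5b*, a serotonin receptor gene, was lowest in these libraries, at 3.41 and 3.18 CPM against 3.83 to 7.65 CPM. *Nwd2* lay inside the range of the other 10 libraries in both. Of the 9 habenular genes, *Pou4f1*, *Gpr151*, *Tac2*, *Chrna3*, *Chrnb3*, *Chrnb4* and *Irx2*, which had 2 reads in KO 2, were higher in KO 2 than in every other library, KO 3 included. With 1 library on each side the difference between KO 2 and KO 3 was not tested.

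**Figure D5:**
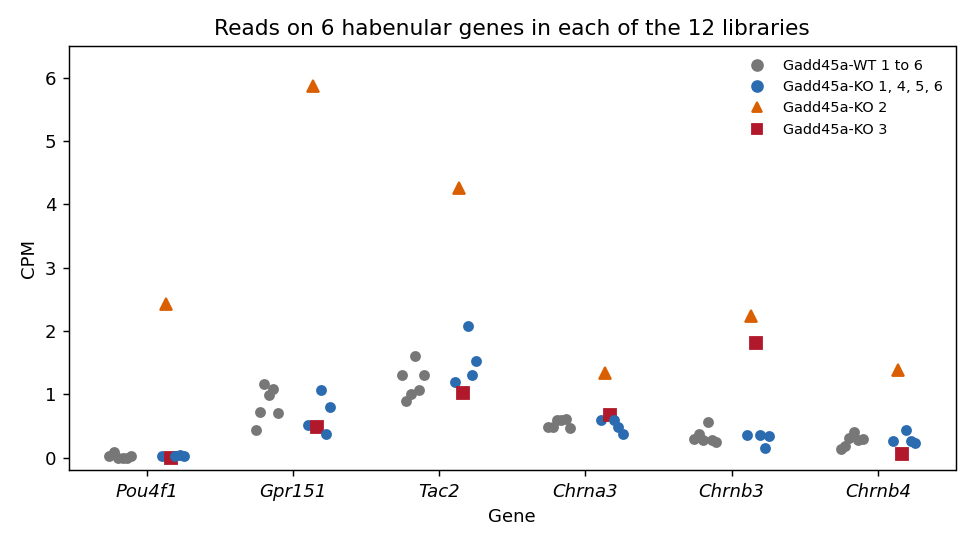
CPM of 6 of the 9 habenular genes on a linear axis, with 1 point for each of the 12 libraries. Of those not drawn, *Htr5b* was lowest in KO 2 and KO 3, *Nwd2* was inside the range of the other libraries in both, and *Irx2* had 2 reads in KO 2. KO 2 (triangle) stands above the rest for all 6, whereas KO 3 (square) does so clearly for *Chrnb3* alone, at 1.81 CPM.

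Genes most like the members were sought by correlating log2 CPM, centred within each label, with the mean of the members over the 12 libraries. The 10 most similar of 16389 other genes were *Epha8* (r = 0.987), *Inadl* (0.985), *Atp2a1* (0.981), *Zfhx3* (0.980), *Zdhhc22* (0.979), *Grid2ip* (0.977), *Nexn* (0.977), *Ramp3* (0.970), *Fam19a4* (0.966) and *Amotl1* (0.963). Over the 6 libraries labelled *Gadd45a*-WT alone, r for these 10 genes ranged from 0.40 for *Amotl1* to 0.88 for *Ramp3*. These 6 libraries were also among the 12 used to pick the genes. For the tested genes of the second list, r in *Gadd45a*-WT ran from -0.91 for *Gpr151* to 0.95 for *Ntng1*. *Fam19a4*, which encodes a small secreted protein, had 3.38 CPM in KO 2 and 4.97 CPM in KO 3, against 0.147 to 0.453 CPM in the other 10. *Inadl*, which encodes a tight junction scaffold, had 17.6 and 27.4 CPM against 5.11 to 6.60 CPM. *Atp2a1*, the calcium pump of fast skeletal muscle, had 1.89 and 3.28 CPM against 0.206 to 0.396 CPM. Of the 20 tested genes of the second list, 11 were among the 200 most similar of the 16389. The members and this list were chosen with earlier results known, so nothing is read from this overlap. *Dab1*, an adaptor of reelin signalling, had the most opposite course (r = -0.950), with 143 CPM in KO 2, 139 CPM in KO 3 and 160 to 172 CPM elsewhere. *Tnrc6c* and *Slitrk5* came next (r = -0.928 for each).

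Relatives of the members in their gene families were examined next. KO 2 and KO 3 were the 2 highest libraries for 8 of 19 tested relatives, against 5.94% of all genes. The lists share genes, since *Rora* is also in the second list and *Tcf7* is also among the Wnt target genes below. Both genes are counted in each of their lists. Between the labels, 0 of 19 passed 1% FDR in the edgeR test, against 2.65% of all tested genes, and 4 of 19 had an unadjusted p under 0.05, against 13.7%. *Slc17a7*, which encodes VGLUT1, had 1386 CPM in KO 2 and 1449.9 CPM in KO 3, inside the range of the other 10 libraries. *Synpo*, which encodes synaptopodin, had 193 CPM in KO 2 and 179 CPM in KO 3, the latter below the 190 to 220 CPM elsewhere. *Tnnt2* and *Prkce* lay inside the range of the other libraries, and *Vipr1*, at 25.6 and 22.8 CPM, lay below their 26.4 to 32.4 CPM. *Rgs8* had 169 and 195 CPM against 148 to 171 CPM. *Zic2* had 12.4 and 10.8 CPM against 4.85 to 8.88 CPM, and *Tcf7* had 3.03 and 3.07 CPM against 2.57 to 2.99 CPM. Of 9 tested Wnt target genes, KO 2 and KO 3 were the 2 highest libraries for 3, again against 5.94% of all genes. *Axin2*, a common readout of the pathway, had 33.0 and 27.6 CPM against 23.6 to 33.3 CPM.

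Markers of other tissues were examined beside these values. Over 11 genes of hippocampal principal cells, KO 2 had 1424 CPM and KO 3 had 1275 CPM in sum, against 1404 to 1766 CPM in the other 10 libraries. Of the 11, 1 passed 1% FDR between the labels, against 2.65% of all tested genes. It was *Zbtb20*, a transcription factor of hippocampal neurons, with a log2 fold change of -0.43 (edgeR adjusted p = 0.00113). *Zbtb20* also passed without KO 2 and KO 3, where 1.22% of all genes did. Over 7 genes of meninges and fibroblasts, in which *Zic1* is also made, KO 2 had 87.4 CPM and KO 3 had 87.2 CPM against 27.4 to 80.7 CPM. Both were the 2 highest libraries for 4 of 7, against 5.94% of all tested genes. Over 8 genes of the choroid plexus the sums were 51.4 and 86.8 CPM against 34.1 to 81.9 CPM. *Otx2*, a transcription factor of the choroid plexus and dorsal brain, had 2.66 and 2.58 CPM against 0.0823 to 0.823 CPM. *Ttr*, the main secreted protein of the choroid plexus, had 15.4 and 45.3 CPM against 2.82 to 35.3 CPM.

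Over 4 genes of newly formed oligodendrocytes, KO 3 had 307 CPM, against 202 CPM in KO 2 and 155 to 216 CPM in the other 10 libraries, with *Bcas1* at 227 CPM in KO 3. Over 4 smooth muscle genes the sums were 31.9 and 34.5 CPM against 15.2 to 31.7 CPM. Sums over 5 endothelial genes, 188 and 176 CPM, lay within the 146 to 198 CPM of the other libraries, as did those over 5 neocortical genes, 100.4 and 93.2 CPM, within 89.9 to 135 CPM. Of 4 genes of the suprachiasmatic nucleus, a site of high *Vipr2*, 1 passed the filter and *Six6* had 0 reads in all libraries. In sum they had 0.901 CPM in KO 2 and 0.675 CPM in KO 3, against 0.342 to 0.890 CPM elsewhere. The part that other cells, neighbouring tissue or the level of RNA per cell had in the values of the 10 members was not tested.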

How the data were processed

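Poly(A) RNA libraries of 12 hippocampi were used, grouped by their labels. The authors aligned the reads with TopHat 1.4.1 to NCBIM37/mm9 and deposited whole read counts per Ensembl gene, made with HTSeq 0.5.4p3 with strand, without normalization. Between 13.7% and 16.4% of the reads had no single gene and were left out. Names and lengths came from an NCBIM37 annotation that held 37205 of the 37991 identifiers.

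CPM were scaled by the reads on tested genes and the TMM factors of edgeR 4.0.16 (R 4.3.3), and log2 CPM added a prior count of 2. Its filter was applied, and groups were compared at 1% FDR by its quasi-likelihood test with no covariate. Standard errors were the fold change over the square root of F. Correlations were computed in Python 3.11.15 and figures drawn with matplotlib 3.10.9. DESeq2 1.42.0 and other settings served as alternatives. The procedures were tested on simulated counts.

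The members and all lists were chosen with earlier results of these data known. The genes named are the members, the 10 most and 3 least similar genes, the second list's abundant or similar genes, each member's most abundant relative, up to 3 abundant genes per marker list and *Gadd45a*. Other genes were named after their values were seen. Whether replicates share a litter or day is not given. The p-values set the difference between the labels against the spread between these samples, and they take the samples as independent.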

Additional observations from a re-analysis of the deposited data

Results flagged for a closer look

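Of 66 groups of 6 libraries, 10 held a library far from its other 5. Chance would give about 3.3 for independent groups of unselected genes. These genes were picked with earlier results known and share their libraries, so nothing is read from the count. Of these, 6 were habenular genes in *Gadd45a*-KO replicate 2. *Pou4f1* had 2.42 CPM there, with 0 to 0.0433 CPM in the others of its label. *Gpr151* had 5.87 CPM against 0.368 to 1.07 CPM, *Tac2* had 4.26 CPM against 1.02 to 2.08 CPM, and *Chrna3* had 1.34 CPM against 0.380 to 0.675 CPM. *Chrnb4* had 1.38 CPM against 0.0578 to 0.432 CPM. *Irx2* had 0.0440 CPM from 2 reads, with 0 reads in the others.

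*Zic1*, the one member among these results, had 13.8 CPM in *Gadd45a*-WT replicate 2, against 5.11 to 7.87 CPM in the others of that label. Because the rule looks for a single library apart from the rest, 2 libraries that are high together can escape it. *Gadd45a*-KO replicates 2 and 3 were such a pair for most members. *Pou4f1* was also highest in that library within its label, at 0.0890 CPM from 4 reads against 0 to 0.0220 CPM. *Irx2* had 0.0184 CPM from 1 read in *Gadd45a*-WT replicate 3. *Cacna1g* had 104 CPM in *Gadd45a*-KO replicate 4 against 59.9 to 73.6 CPM.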

How the results depend on the processing

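No member passed 1% FDR with all libraries, but 1 passed with RLE size factors, with DESeq2, without the filter on low counts and at 5% FDR, and 0 to 1 passed when each library was left out in turn. That member was *Rorb* each time, with log2 fold changes of 0.34 (edgeR adjusted p = 0.00993 with RLE factors, 0.00755 without the filter, and 0.000318 from DESeq2) and 0.39 without *Gadd45a*-KO replicate 1 (edgeR adjusted p = 0.00270). Leaving out both *Gadd45a*-KO replicates 2 and 3, added after seeing the data, turned *Zic1* to -0.030, *Tcf7l2* to -0.055 and *Rgs16* to -0.076 on the log2 scale. With single libraries left out, *Tnnt1* ranged from 1.63 to 2.86 and *Vipr2* from 1.46 to 2.72. Over all genes, 434 passed, and 680 with DESeq2, 746 at 5% FDR, 202 without both libraries, 283 with the mean of the second list as a covariate, 210 with that of the members, and 242 to 470 with single libraries left out. The cause of these shifts was not tested. No gene of the second list passed with any single library left out (0 to 0). Libraries with the same replicate number correlated by -0.0761 to 0.262 in their deviations from the group means, with 5 of 6 over 0.1, and 1 *Gadd45a*-WT library correlated best with its own number, so that the numbers are not taken to pair the samples. With a block for the replicate number, 514 genes passed, 0 members, and 1 gene of the second list, *Nwd2*, which was lower under the label *Gadd45a*-KO. Genes with few reads, such as *Vipr2* and *Pou4f1*, are limited by depth.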
